A study of Mus musculus domesticus and Mus musculus molossinus with 8 samples.

Results

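Cytosolic sulfotransferases move a sulfonate group from the donor PAPS onto hormones, bile acids, neurotransmitters and drugs, which as a rule makes them more water-soluble and easier to excrete. In mouse liver several of these genes are known to be expressed at different levels in females and males, with Sult2a1, Sult2a2 and Sult3a1 known as female-predominant. The genes described here are the 7 named sulfotransferase genes Sult1a1, Sult1b1, Sult1d1, Sult2a1, Sult2a2, Sult3a1 and Sult5a1, taken by symbol from tables of 23284 genes, in which all 7 were found and which hold 14 other Sult genes. They were not chosen by a threshold on their values, but earlier results of these data were known when they were chosen. Each was measured in 4 mice, all 8 weeks old, in the liver and in the thymus. MSM is the wild-derived Japanese strain MSM/Ms and B6 is the laboratory strain C57BL/6. In each strain 1 mouse had received 1.5 µg of MegaFasL, a multimeric form of the ligand of the death receptor Fas, into the peritoneum, and 1 mouse was untreated. The order of the groups below is MSM injected, B6 injected, MSM untreated and B6 untreated, each with 1 liver and 1 thymus library from the same mouse. No allele or transgene is named in the labels for any group, and neither the sex of the mice nor the time from injection to collection is given in the sources used here.

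All values are FPKM, a fragment count divided by the length of the transcript and by the depth of the library, which allows levels of different genes to be compared per length. Injected and untreated mice stand in separate tables that the authors normalized separately. From the steps between low values, 1 FPKM on 1 kb of transcript was estimated to stand for 1.56 to 1.84 fragments in the livers and 2.84 to 3.48 in the thymi. Transcript length was counted here after 175 to 250 bases, depending on the library, were taken off. The 12 hepatocyte markers were all above 1 FPKM in all 4 livers, with sums of 145602, 107459, 121496 and 115262 FPKM. The 8 thymocyte markers were all above 1 FPKM in all 4 thymi. Xist, the RNA of the inactive X chromosome, stood between 73.0 and 148 FPKM in the 8 libraries, and the Y-linked genes Ddx3y, Kdm5d, Uty and Eif2s3y were listed at 0 in all of them. The MSM untreated thymus stood apart: its hepatocyte markers summed to 3268 FPKM against 43.9 to 221 FPKM in the other thymi, its 4 airway secretory markers to 1145 FPKM against 1.07 to 7.01 FPKM, and its 5 adipocyte markers to 1013 FPKM against 105 to 137 FPKM.

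Sult2a1 and Sult2a2 lie close together on chromosome 7, and their reads cannot always be told apart. Sult2a1 spans chr7:13796246-13837410 (mm10, minus strand) and Sult2a2 chr7:13733506-13779637 (plus strand), as positioned in the deposited tables with starts counted from 1. In the GENCODE M21 annotation of mm10, the coding sequences of the pair were 97.9% identical, with 12 differing bases in 582 aligned ones. Sult2a1 has 855 coding bases and Sult2a2 582, so the rest of Sult2a1 is not in that share. The annotated transcript of Sult2a1 has 6 exons and 1020 bases, and that of Sult2a2 4 exons and 741 bases. Of the stretches of 50 bases in the Sult2a1 transcript, 33.2% also occurred unchanged in a transcript of another gene, and for Sult2a2 this share was 62.1%. With up to 2 mismatches against another Sult gene allowed, the shares were 87.5% and 90.3%. Against the other gene of the pair alone they were 54.0% for Sult2a1 and 75.7% for Sult2a2. The 60 coding bases of exon 2 in which the pair differs most are shown to let the likeness of the pair be seen. Capitals mark the 4 differing bases, at chr7:13836047-13836106 (minus strand) for Sult2a1 and chr7:13734810-13734869 (plus strand) for Sult2a2.
Sult2a1: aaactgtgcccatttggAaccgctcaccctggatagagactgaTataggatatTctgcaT
Sult2a2: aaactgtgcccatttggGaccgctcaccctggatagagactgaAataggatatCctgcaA

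Sult3a1, an amine sulfotransferase gene at chr10:33857722-33879475 (plus strand), has a neighbour named Gm4794 in the tables, a symbol that RefSeq lists under Sult3a2. Their coding sequences were 90.9% identical, with 80 differing bases in 879. Of the Sult3a1 stretches of 50 bases, 6.15% also occurred in the Sult3a2 transcript, and 27.5% did so with up to 2 mismatches. The most different 60 coding bases within an exon are given below, from exon 4 of Sult3a1 (chr10:33869216-33869275, plus strand) and exon 3 of Sult3a2 (chr10:33778178-33778237, minus strand), with the 16 differing bases in capitals. The most different stretch of this pair thus holds more differing bases than that of Sult2a1 and Sult2a2.
Sult3a1: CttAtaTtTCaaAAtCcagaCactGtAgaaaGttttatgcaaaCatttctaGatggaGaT
Sult3a2: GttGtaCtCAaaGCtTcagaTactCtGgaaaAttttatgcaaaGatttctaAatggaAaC

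The main strain difference in liver was that the hydroxysteroid sulfotransferase genes Sult2a1 and Sult2a2 were far lower in MSM than in B6. Reads of both strains were aligned to a genome built from B6. The part of mismatched MSM reads in this difference was not tested. Sult2a1, whose enzyme sulfonates dehydroepiandrosterone and bile acids, had 35.7 FPKM in the MSM injected and 2.12 FPKM in the MSM untreated liver, against 423.5 FPKM in the B6 injected and 210.4 FPKM in the B6 untreated liver. Both MSM livers lay below both B6 livers, with B6 higher 11.9-fold among injected and 99.4-fold among untreated mice. Sult2a2, a close paralog, was listed at 0 in the MSM injected liver and had 5.36 FPKM in the MSM untreated liver, against 364 FPKM in the B6 injected and 293 FPKM in the B6 untreated liver. By the estimated depth, the values of the MSM untreated liver rested on about 2.99 fragments for Sult2a1 and 5.00 for Sult2a2, so which of the pair they came from is uncertain. Summed over the pair, MSM livers had 35.7 FPKM injected and 7.48 FPKM untreated, against 788 and 503 FPKM in B6 livers.

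In limma on log2(FPKM + 1), fitted over 10971 genes with treatment as a block, MSM minus B6 was -4.81 ± 0.62 for Sult2a1 (SE, Benjamini-Hochberg adjusted p = 0.0462) and -7.02 ± 0.71 for Sult2a2 (adjusted p = 0.0313), with n = 2 mice per strain, 1 injected and 1 untreated, here and in every strain value below. The value of Sult2a2 depends on the added 1, since a library was listed at 0, and is no fold change. When the pair was summed into 1 row, a choice made after the values were seen, the difference was -5.16 ± 0.39 (adjusted p = 0.0136). Of the 7 genes 2 were called lower and 0 higher in MSM, while 0.957% of all genes tested were called lower and 0.51% higher. Since the genes were chosen with earlier results of these data known, this count is no test of an excess. The error in this fit is how far a strain difference varied between injected and untreated mice, moderated across genes, and says nothing of how mice of 1 strain and treatment vary. With the treatment term dropped and all 4 libraries kept, Sult2a1 no longer passed (adjusted p = 0.174). Fits without 1 of the 4 liver libraries also had to drop that term, since no residual degree of freedom would be left with it, so both changed at once. In these fits neither gene passed, with adjusted p between 0.146 and 0.660 for Sult2a1 and between 0.0564 and 0.517 for Sult2a2, and limma called 0 of all genes in each, with 821 to 1229 genes and 2 to 4 of the 7 at an unadjusted p under 0.05. Bulk RNA cannot tell fewer cells of a type from less RNA per cell.

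**Figure D1:**
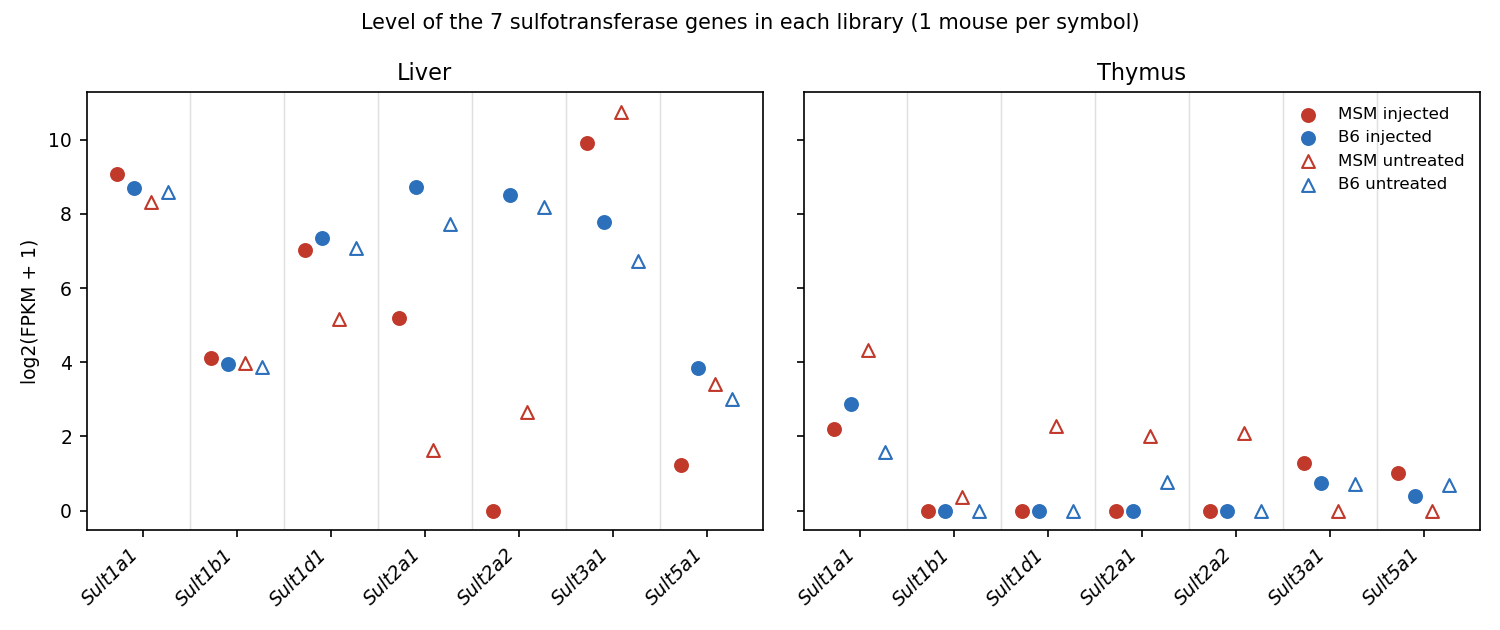
Level of each of the 7 genes as log2(FPKM + 1) in the 4 liver libraries (left) and the 4 thymus libraries (right), 1 mouse per symbol, with MSM in red, B6 in blue, injected mice as filled circles and untreated mice as open triangles. Sult2a1 and Sult2a2 are low in both MSM livers (at most 35.7 FPKM) and high in both B6 livers (at least 210.4 FPKM), and Sult3a1 stands the other way round.

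Sult3a1 and its neighbour Sult3a2 stood the other way round. Sult3a1 had 971 FPKM in the MSM injected and 1724 FPKM in the MSM untreated liver, against 219 FPKM in the B6 injected and 105 FPKM in the B6 untreated liver, a ratio of MSM to B6 of 4.43 among injected and 16.4 among untreated mice. The strains did not overlap, and the difference was 3.08 ± 0.46 on the log2 scale, which missed the threshold (limma adjusted p = 0.0664). It passed with no filter on low values (adjusted p = 0.0399), with a filter of 5 FPKM (adjusted p = 0.0457) and after rescaling to a common sum (adjusted p = 0.0161), and over all 14 alternatives the adjusted p ranged from 0.0161 to 0.517. Sult3a2 had 166 and 558 FPKM in the MSM injected and untreated livers, against 12.3 and 7.16 FPKM in the B6 injected and untreated livers. It was higher in MSM by 4.87 ± 0.59 (adjusted p = 0.0420). Summed, the pair differed by 3.31 ± 0.50 (adjusted p = 0.0660).

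Of the SULT1 genes none passed the strain test in liver. Sult1a1 (chr7:126672870-126676357, minus strand), the main phenol sulfotransferase gene, had 540.2 FPKM in the MSM injected, 412 FPKM in the B6 injected, 322 FPKM in the MSM untreated and 382 FPKM in the B6 untreated liver. In the GENCODE M21 annotation 7.72% of its stretches of 50 bases also occurred in a transcript of Gm6939, so reads of these genes may be split. MSM was the higher strain among injected and the lower one among untreated mice, and the difference was 0.07 ± 0.23 (adjusted p = 0.910). Sult1b1 (chr5:87513339-87538195, minus strand), whose enzyme acts on thyroid hormones, was the steadiest of the 7 genes, at 16.4 and 14.9 FPKM in the MSM injected and untreated livers and 14.6 and 13.7 FPKM in the B6 injected and untreated livers. Its difference was 0.14 ± 0.25 (adjusted p = 0.829). Sult1d1 (chr5:87554650-87569006, minus strand), a catecholamine sulfotransferase gene in mouse, had 130.3 and 35.1 FPKM in the MSM injected and untreated livers, against 161 and 134 FPKM in the B6 injected and untreated livers. The MSM untreated liver was the lowest of the 4, and the difference was -1.11 ± 0.41 (adjusted p = 0.294).

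Sult5a1 (chr8:123142847-123158280, minus strand) had the lowest mean over the livers. It had 1.33 FPKM in the MSM injected liver and 9.65 FPKM in the MSM untreated liver, against 13.3 FPKM in the B6 injected and 6.99 FPKM in the B6 untreated liver. The strains overlapped, with MSM lower among injected and higher among untreated mice (-1.10 ± 0.75, adjusted p = 0.530). Across the 7 genes the strains did not overlap for 5, namely Sult1b1, Sult1d1, Sult2a1, Sult2a2 and Sult3a1. The same held for 43.3% of all genes tested, so the count alone says little about these genes.

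**Figure D2:**
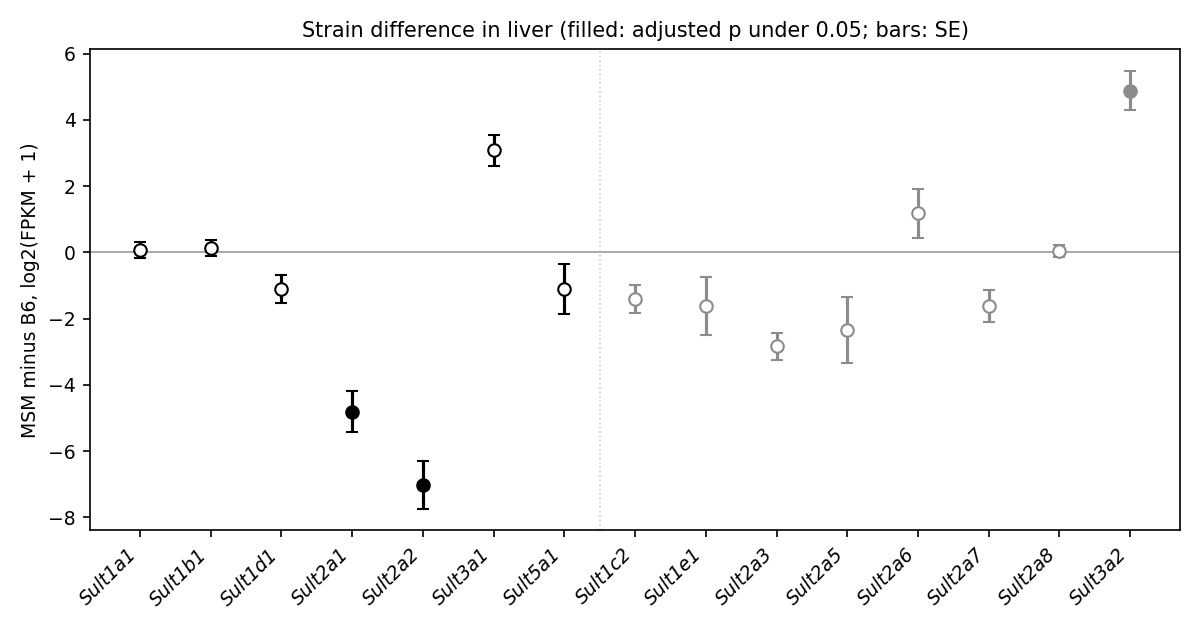
MSM minus B6 in liver on log2(FPKM + 1), with the SE of the fit as bars, for the 7 genes (black, left of the dotted line) and the 8 other Sult genes that reached a mean of 1 FPKM (grey); filled symbols passed at an adjusted p under 0.05. Sult2a2 (-7.02) and Sult2a1 (-4.81) lie lowest and Sult3a2 (4.87) highest, while Sult1a1, Sult1b1 and Sult2a8 lie near 0.

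The other Sult genes gave context to these differences. Of the 14, 8 reached a mean of 1 FPKM in liver, of which 1 was called higher (Sult3a2), 0 lower and 7 did not pass, with a median difference of -1.51 against 0.01 over all genes. Sult2a8, listed in the tables as 2810007J24Rik, acts on bile acids in mouse and had 395 and 358 FPKM in the MSM injected and untreated livers and 382 and 355 FPKM in the B6 injected and untreated livers (0.03 ± 0.18, adjusted p = 0.953). The 50-base stretches of its transcript were in no transcript of another gene. Sult2a3 was listed at 0 in both MSM livers, with 5.08 FPKM in the B6 injected and 7.43 FPKM in the B6 untreated liver (-2.84 ± 0.41, adjusted p = 0.0614). Sult2a5 had 8.29 FPKM in the MSM injected liver and was listed at 0 in the MSM untreated one, against 9.88 and 20.9 FPKM in the B6 injected and untreated livers (-2.34 ± 1.00, adjusted p = 0.348). The estrogen sulfotransferase gene Sult1e1 was above 0 in the B6 injected liver alone, at 8.41 FPKM.

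The make-up of the sulfotransferase transcripts in each liver follows from these levels. The 21 Sult genes in the tables summed to 2270 FPKM in the MSM injected, 2031 FPKM in the B6 injected, 3032 FPKM in the MSM untreated and 1547 FPKM in the B6 untreated liver. The 7 genes made up 74.7%, 79.2%, 69.7% and 74.0% of these sums, in the same order. Sult3a1 was first of the 7 in both MSM livers, with 42.8% of the sum injected and 56.9% untreated, against 10.8% and 6.78% in the B6 injected and untreated livers. Sult1a1 came next in both MSM livers. Among the 7, Sult2a1 and Sult1a1, at 20.9% and 20.3%, led the B6 injected liver, and Sult1a1 and Sult2a2, at 24.7% and 18.9%, the B6 untreated one. Sult1b1 and Sult5a1 each stayed under 1% in all 4 livers.

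**Figure D3:**
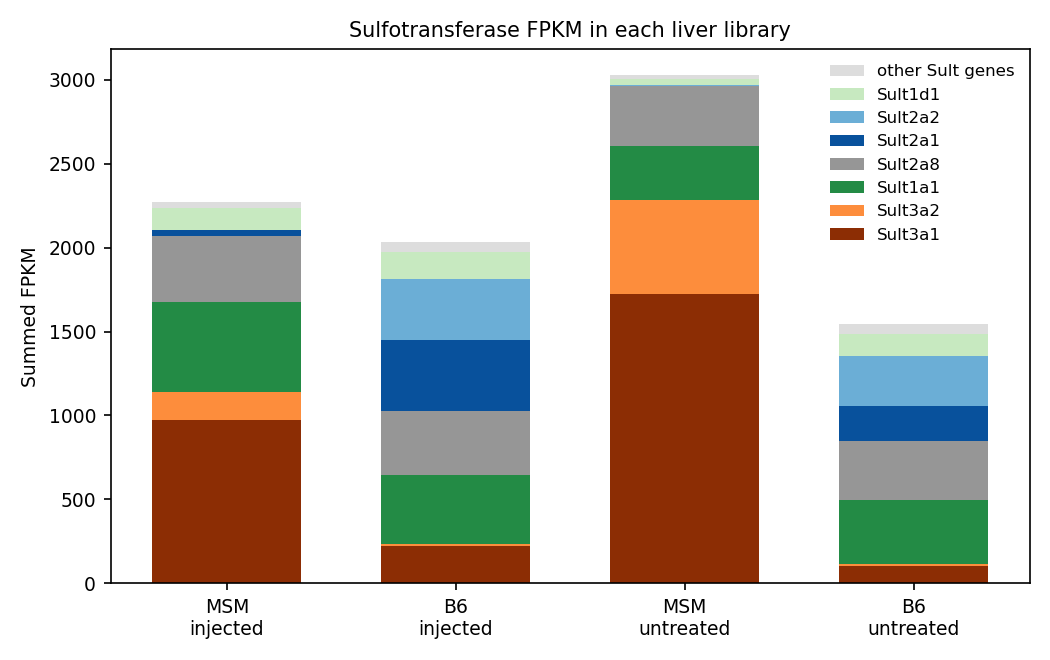
Summed FPKM of the 21 Sult genes in each liver library, 1 mouse per bar, with the share of each gene as a coloured segment. Sult3a1 with Sult3a2 fills most of the MSM untreated bar (2282 of 3032 FPKM) and little of the B6 untreated bar (112 of 1547 FPKM), where Sult2a1 and Sult2a2 together hold 503 FPKM.

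Among the genes around sulfonation none passed the strain test in liver. The unadjusted counts below stand beside 1774 of all 10971 genes at an unadjusted limma p under 0.05. Of the 8 measured PAPS supply genes, which make, carry or clear the sulfonate donor, limma called 0 in either direction (1 at an unadjusted p under 0.05), with a median of -0.08. The largest in level was Papss2, a PAPS synthase gene, at 62.2 and 69.3 FPKM in the MSM injected and untreated livers against 162 and 104 FPKM in the B6 injected and untreated livers (-0.97 ± 0.27, adjusted p = 0.203). Of the 5 measured sulfatase genes, which remove sulfate groups or activate the enzymes that do, 0 were called (1 unadjusted), with a median of -0.15. Of the 20 transcription factors that regulate liver genes 0 were called (4 unadjusted), with a median of 0.06. Nearest to the threshold was Bcl6, a repressor known for its male-biased level in mouse liver, at 14.0 and 21.4 FPKM in the MSM injected and untreated livers against 2.70 and 2.57 FPKM in the B6 injected and untreated livers (2.33 ± 0.31, adjusted p = 0.0523). Hnf4a, a main hepatocyte factor, gave -0.13 ± 0.20 (adjusted p = 0.797).

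Lists of genes known to be sex-biased in mouse liver differed between the strains in the same fit. These lists were chosen with earlier results of these data known, so their counts are no test of an excess. Of 14 measured female-biased genes other than sulfotransferases, 6 were lower in MSM (Cyp2b9, Cyp2b13, Cyp17a1, A1bg, Acot3 and Abcd2), 1 was higher (Hao2, a hydroxyacid oxidase gene) and 7 did not pass, with a median of -2.97. Acot3, an acyl-CoA thioesterase gene, was listed at 0 in both MSM livers and had 75.5 and 54.2 FPKM in the B6 injected and untreated livers. Among the male-biased genes 9 were measured, of which 6 stood higher in MSM livers (Cyp4a12a, Cyp4a12b, Cyp2d9, Ugt2b38, Susd4 and C6), 0 were lower and 3 did not pass, with a median of 4.28. Sult2a1 and Sult2a2 had the sign of most of the female-biased genes, and Sult3a1, also female-predominant in mouse, had that of Hao2. The Y-linked genes were listed at 0 in all 4 livers, so the comparison holds no liver with Y-linked transcripts.

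**Figure D4:**
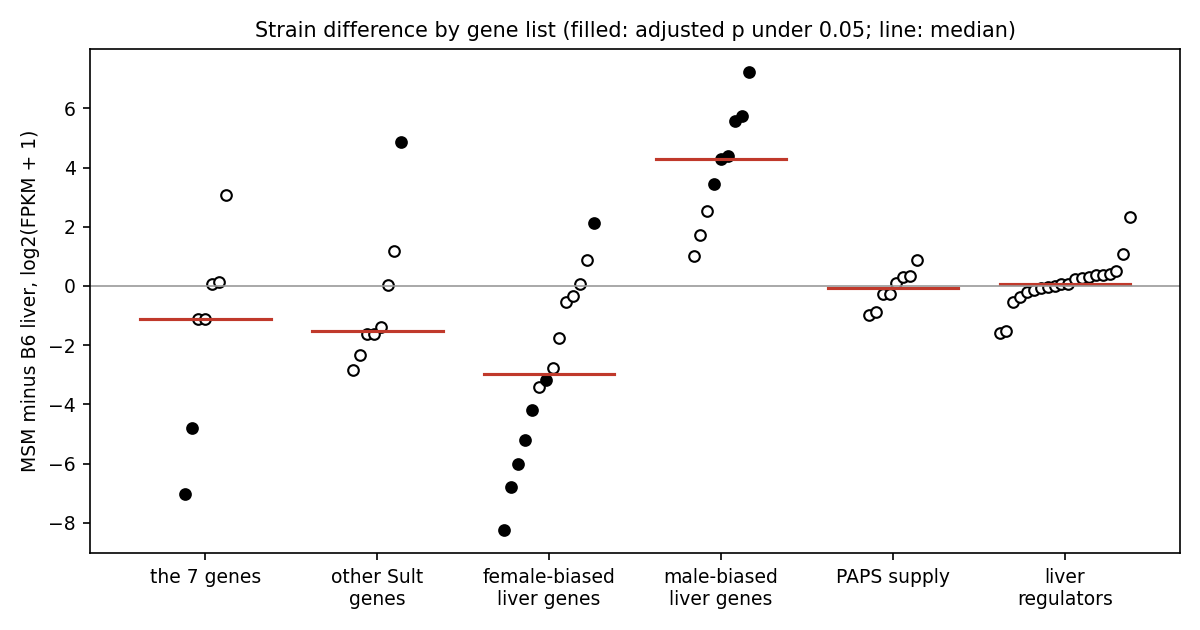
MSM minus B6 in liver on log2(FPKM + 1) for the measured genes of 6 lists, 1 symbol per gene, filled where the adjusted p was under 0.05, with the list's median as a red line. Medians stand at -1.10 for the 7 genes, -2.97 for the female-biased and 4.28 for the male-biased liver genes.

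Markers of other liver cells were read in the same libraries. The 8 Kupffer cell and macrophage markers summed to 45.5 and 66.9 FPKM in the MSM injected and untreated livers, against 164 and 322 FPKM in the B6 injected and untreated livers. All 8 were lower in MSM, by -2.88 to -0.98 with a median of -1.76, and 6 had an unadjusted limma p under 0.05. Of these Lyz2 and Csf1r were called lower, and none of the 8 was listed at 0. The 6 endothelial markers summed to 48.4 and 85.9 FPKM in MSM and to 110.2 and 141 FPKM in B6, injected and untreated, with 0 called (3 at an unadjusted p under 0.05), and Lyve1 had the opposite sign to the other 5 (0.99). The 5 stellate cell markers summed to 77.0 and 79.1 FPKM in MSM and to 84.3 and 126 FPKM in B6, injected and untreated, with 0 called (1 unadjusted) and positive differences for Reln (0.62) and Col1a1 (0.76). The 5 cholangiocyte markers summed to 33.3 and 27.0 FPKM in MSM and to 34.1 and 41.1 FPKM in B6, injected and untreated, and of the 2 tested 0 were called (0 unadjusted). The part of these cells in the sulfotransferase differences was not tested. Of the 12 hepatocyte markers 0 were called (4 unadjusted), with a median of 0.23. Over all 10971 genes in this fit, 1774 had an unadjusted p under 0.05.

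The deposited tables also give a lower and an upper bound for each FPKM. For all 7 genes the lower bound was 0 in all 4 livers. The upper bounds for Sult2a1 were 85.7 and 6.44 FPKM in the MSM injected and untreated livers, against 1221 and 486 FPKM in the B6 injected and untreated livers. No gene of the 7 had MSM and B6 intervals wholly apart in both tables, and the share over all genes was 0%, so these bounds separate nothing here.

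MegaFasL-injected and untreated livers were compared only as a description, since treatment coincides with the table and each strain has 1 mouse per treatment. After median centring, 0 of the 7 genes moved by 2-fold or more in the same direction in both strains, while by that rule 1.63% of all genes were higher and 1.27% lower. In MSM, injected minus untreated was 3.52 for Sult2a1 and 1.82 for Sult1d1 on the log2(FPKM + 1) scale, with 0.94 and 0.21 in B6. For Sult2a1 the MSM untreated liver held an estimated 2.99 fragments. Its MSM value was 3.97 with 0.1 and 2.48 with 5 added in place of 1. Sult2a1 in B6 stood just under the 2-fold line and passed it without centring, at 1.01. Sult2a2 gave -2.67 in MSM and 0.25 in B6. The MSM value sets a listing at 0 against an estimated 5.00 fragments, and it was -5.77 with 0.1 and -1.05 with 5 added in place of 1. Summed with Sult2a1, from which its reads are hard to separate, the pair gave 2.07 in MSM and 0.58 in B6, so the opposite signs were not seen in the sum. Sult5a1 gave -2.22 in MSM and 0.79 in B6, and the MSM value was -2.81 with 0.1 and -1.22 with 5 added. Sult3a1 gave -0.87 in MSM and 0.99 in B6, and Sult3a2 likewise gave -1.79 in MSM and 0.64 in B6. Summed, Sult3a1 and Sult3a2 gave -1.05 in MSM, past the 2-fold line, and 0.98 in B6, so the opposite signs stayed. Within MSM, 4 of the 7 genes moved by 2-fold or more, 2 higher and 2 lower, beside 6.65% of all genes higher and 7.11% lower. Within B6 it was 0 of the 7, beside 6.47% of all genes higher and 6.24% lower. That 0 rests on the centring, since without it Sult2a1 and Sult3a1 passed in B6, at 1.01 and 1.06. Whether the strains differ in this was not tested. Sult1a1 gave 0.71 in MSM and 0.05 in B6, and Sult1b1 0.09 in MSM and 0.02 in B6. Of the liver regulators, Ppara, the fatty acid receptor, was above 2-fold in both, with 1.60 in MSM and 1.12 in B6. So was Cux2, a factor known as female-specific in mouse liver, with 1.61 in MSM and 2.91 in B6. Its untreated livers stood low, at 0.235 FPKM in MSM and 1.36 FPKM in B6, against 2.85 and 17.4 FPKM in the injected ones.

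**Figure D5:**
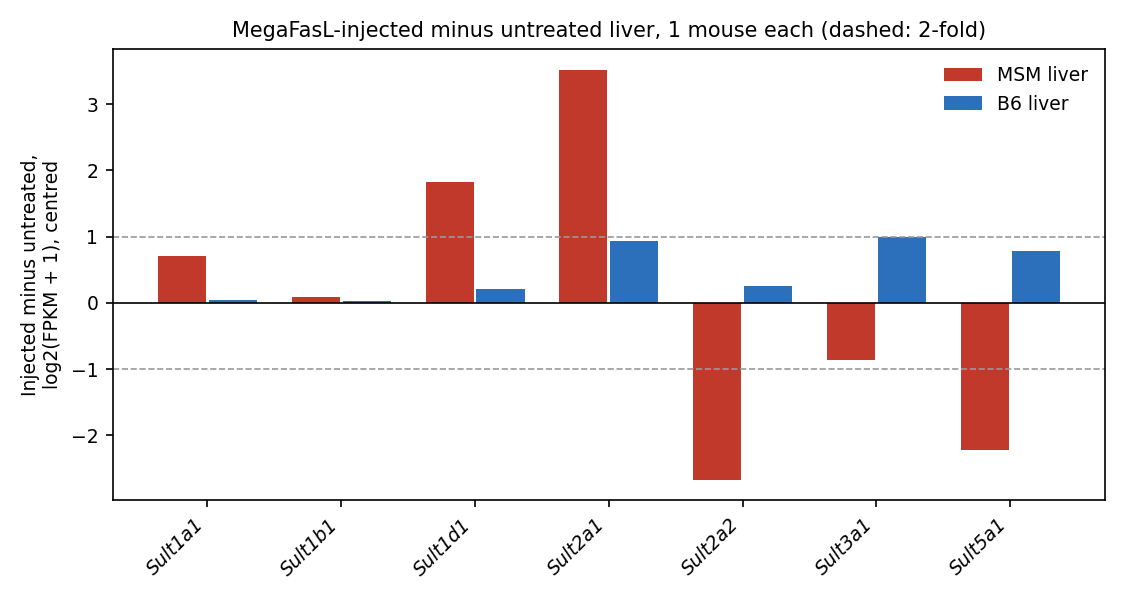
Injected minus untreated liver on log2(FPKM + 1) after median centring, for MSM (red) and B6 (blue), 1 mouse per strain and treatment, with dashed lines at 2-fold. Only MSM bars pass the lines (Sult1d1, Sult2a1, Sult2a2 and Sult5a1), and B6 bars reach at most 0.99 (Sult3a1). Without centring, Sult2a1 (1.01) and Sult3a1 (1.06) pass in B6 as well.

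In liver against thymus, 6 of the 7 genes were higher in liver, while 28.6% of all 12880 genes tested were called higher and 32.1% lower. A gene entered this fit with a mean of at least 1 FPKM in either tissue. Of the 7 only Sult1a1 reached that mean in thymus. The others entered through the liver and could hardly be called lower, so the count of 6 says little. In limma with mouse as a block (n = 4 mice), liver minus thymus was 8.11 ± 0.74 for Sult3a1 (adjusted p = 0.000282), 6.09 ± 0.76 for Sult1d1 (adjusted p = 0.000964) and 5.93 ± 0.51 for Sult1a1 (adjusted p = 0.000232), each higher in 4 of 4 mice. Sult1b1 gave 3.89 ± 0.20, the smallest error of the 7 (adjusted p = 7.19e-05). Sult2a1 gave 5.13 ± 1.39 (adjusted p = 0.0195) and Sult5a1 2.35 ± 0.57 (adjusted p = 0.0128). Sult2a2 gave 4.32 ± 1.64, which did not pass (adjusted p = 0.0606); it was listed at 0 in both tissues of the MSM injected mouse. Sult2a1 was lower in the liver than in the thymus of the MSM untreated mouse, at 2.12 against 3.03 FPKM.

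In thymus the levels were low, with Sult1a1 the highest of the 7. It had 3.57 FPKM in the MSM injected, 6.35 FPKM in the B6 injected, 19.1 FPKM in the MSM untreated and 1.99 FPKM in the B6 untreated thymus. It was the only one of the 7 to reach a mean of 1 FPKM, and its strain difference was 1.03 ± 0.73 (adjusted p = 0.613), with -0.04 in a fit without the MSM untreated thymus and without the treatment term. Of all genes tested in thymus 0.379% were called higher and 0.594% lower. Sult1b1, Sult1d1 and Sult2a2 were above 0 in the MSM untreated thymus alone, at 0.295, 3.88 and 3.29 FPKM. In that library the hepatocyte markers stood at 1.33% to 5.11% of their level in the liver of the same mouse, Sult1a1 at 5.94%, Sult1b1 at 1.98%, Sult1d1 at 11.1%, Sult2a2 at 61.3% and Sult2a1 at 143%, the last pair against a liver with 5.36 and 2.12 FPKM. Sult3a1, at 1724 FPKM in that liver, was listed at 0 in that thymus. The 6 female-biased genes called lower in MSM livers stood at 2.37 to 12.1 FPKM in that thymus. They had 0 to 5.87 FPKM in that liver and 30.2 to 435 FPKM in the B6 untreated one. The 6 male-biased genes called higher stood at 0 to 1.55 FPKM in that thymus. They had 23.4 to 362 FPKM in that liver and 0 to 27.3 FPKM in the B6 untreated one. The part of liver RNA in these thymus values, and which liver it came from, were not tested.

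The genes whose pattern over the 4 livers was most like that of a sulfotransferase gene were found by the Euclidean distance of centred log2(FPKM + 1) among 7053 other genes that averaged 5 FPKM or more. With 4 points that share their libraries, this only describes likeness. Nearest to Sult3a1 were Cyp4a32 (0.45), Prelid2 (0.49) and Abhd1 (0.54). Nearest to Sult2a1 were 9030619P08Rik (1.16), Slc3a1 (1.52) and Glt1d1 (1.90), and nearest to Sult2a2 were Cyp4a14 (1.20), H2-K1 (1.50) and Mup3 (1.58). Sult2a1 and Sult2a2 lay 4.95 from each other, with 35.7 FPKM against a listing at 0 in the MSM injected liver. The flat Sult1b1 was followed most closely by Ywhaz (0.01), Sult1a1 by Pnpla7 (0.04), Sult1d1 by Orm2 (0.30) and Sult5a1 by Gng11 (0.20). No gene of the 7 was among the 3 nearest of another.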

How the data were processed

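Polyadenylated RNA was taken up in TriPure and made into libraries with a TruSeq kit, per the labels' protocols. Reads were handled with TopHat and Cuffdiff 2.2.1 on mm10, per the submitters' processing notes; the gene annotation and the settings, including the treatment of reads that map to several genes, are not given in the sources used here. mm10 is built from C57BL/6, and MSM reads were aligned to it as well; the part of mismatched MSM reads in the strain differences was not tested. The authors deposited FPKM values with lower and upper bounds, in 1 table per treatment, each normalized separately. No counts are given, and depths are estimates, so no interval was drawn from them. The scale of each library was the one that made most low values whole within 0.1, and 69.6% to 73.5% came out so. A scale fixed beforehand would give 20% by chance. The chance level for the best of many scales was not computed.

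Genes that averaged 1 FPKM or more were compared as log2(FPKM + 1), which understates changes of low genes, with limma 3.58.1 (trend, two-sided) in R 4.3.3, Benjamini-Hochberg adjustment over all genes and a threshold of 0.05. The strain fits used the 4 libraries of a tissue with treatment as a block (1 library per group). Liver and thymus were paired by mouse, as the design text states, and genes needed the mean of 1 FPKM in either tissue. The code was tested on simulated data. Replicates of a group do not exist, so p-values measure only the spread between these libraries. The genes and lists were chosen with earlier results of these data known. Named genes were the 7 genes, listed genes that passed or were largest in level, and the 3 nearest genes. Of the 15 other Sult genes listed, 14 were matched, and of 6 sulfatase genes 5, with older symbols matched through RefSeq. Sequences came from GENCODE M21 (mm10). Coding sequences were aligned in pairs, and at least 500 aligned bases were required.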

Additional observations from a re-analysis of the deposited data

Results flagged for a closer look

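The contrast of injected with untreated liver had opposite signs in the strains for 3 of the 7 genes, each from 1 mouse per strain and treatment. The difference between the strains was not tested. The share of all genes with opposite signs was not counted, so the count of 3 is not read as a trait of these genes. Injected minus untreated was -2.67 in MSM and 0.25 in B6 for Sult2a2, -0.87 in MSM and 0.99 in B6 for Sult3a1, and -2.22 in MSM and 0.79 in B6 for Sult5a1, on the centred log2(FPKM + 1) scale. For Sult2a2 the MSM value ran from -5.77 to -1.05 with the value added before the log. The sum of Sult2a1 and Sult2a2 had the same sign in both strains, at 2.07 in MSM and 0.58 in B6. That of Sult3a1 and Sult3a2 kept opposite signs, at -1.05 in MSM and 0.98 in B6. MSM minus B6 had opposite signs in the treatments for Sult1a1, at 0.39 in injected and -0.25 in untreated livers, and for Sult5a1, at -2.62 in injected and 0.41 in untreated livers. This difference was not tested either, and the share of all genes with opposite signs was not counted here either.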

How the results depend on the processing

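Of the 7 genes, 2 passed the strain test in liver. The number was 1 with 0.1 added in place of 1, where Sult2a2 missed (adjusted p = 0.0596), 1 with robust moderation, where Sult2a1 missed (adjusted p = 0.0590), and 1 with the treatment term dropped, where Sult2a1 missed as well (adjusted p = 0.174). It was 0 in limma without trend (adjusted p = 0.114 for Sult2a1 and 0.0863 for Sult2a2), and between 0 and 0 without 1 library each; the cause was not tested. Every fit of the strain without 1 library, in liver and thymus, also dropped the treatment term, since 3 libraries leave no residual degree of freedom with it, so a move there cannot be put down to the library. Sult2a1, Sult2a2 and Sult3a1 kept their sign under all 14 alternatives run for each. For each of them both MSM livers lay on the same side of both B6 livers. The sign could then hardly turn in the same libraries, so this says little. Among the genes that did not pass, Sult1a1 turned to -0.10 and Sult1b1 to -0.028 when libraries were rescaled to the same sum, with a median over all genes of -0.15 in place of 0.01, and Sult1a1 ranged from -0.30 to 0.45 without 1 library each; the cause was not tested. In thymus, fits without 1 library and the treatment term gave -0.035 to 2.10 for Sult1a1. Each of these fits leaves 1 strain with 1 library, so no count of called genes among the 7 is given for them. Without the MSM injected thymus, that library is the MSM untreated thymus with its hepatocyte markers. For the injection, the count of 0 became 1 as deposited, 1 rescaled to the same sum (Sult2a1 in both) and 4 in MSM alone, where 6.65% of all genes were higher and 7.11% lower. Summed with Sult2a1, a choice made after the data were seen, Sult2a2 turned to 2.07 in MSM, since the sum is mostly Sult2a1 in the injected liver. In liver against thymus, 6 genes were called with the mouse as replicate block and 6 without the block, and between 4 and 7 without 1 mouse each, with 7 without the MSM untreated mouse. Sult2a1 missed without any 1 of the other 3 mice (adjusted p 0.0653 to 0.0717) and Sult5a1 without the B6 injected mouse (adjusted p = 0.0515). In that comparison rescaling gave a median over all genes of -0.98 in place of -0.13. Over all genes, the strain calls in liver numbered 161, against 362 after rescaling, 37 without trend and 0 without any 1 library and the treatment term; in thymus 113, against 10 to 301; for the injection 317, against 108 to 551. Of the 7 genes 4 had an unadjusted p under 0.05 in the liver strain fit, as did 1774 of all 10971 genes tested. Depth limits the low values: 1 fragment stood for 1.07 FPKM of Sult2a2 in the MSM untreated liver.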
